A study of Mus musculus with 40 samples.

Results

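The type XII collagen gene Col12a1 and 8 genes of the brain extracellular matrix (Acan, Bcan, Ncan, Vcan, Hapln1, Hapln4, Tnr and Sparcl1) were looked up by RefSeq symbol among 6831 transcripts measured in mouse cortex. 6 of the 9 genes were found, each with 1 transcript, out of 5863 gene symbols in all: Col12a1 (NM_001290308), Bcan (NM_007529), Ncan (NM_007789), Hapln4 (NM_177900), Tnr (NM_022312) and Sparcl1 (NM_010097). Acan, Vcan and Hapln1 are not analysed here. The 40 libraries came from cortex of male C57BL/6 mice (C57Bl/6J in the study's methods) aged 12 weeks, 10 labelled samples in each of 4 groups. The series' design text gives 4 samples a group instead, and no label states that each sample is a separate mouse, so the errors and p-values measure the spread between these samples and would be too small if samples shared a mouse. Saline HF-HI mice received intraperitoneal saline 1 h before each round of head impacts given at high frequency (HF-HI), a closed-skull regimen of many light impacts, and memantine HF-HI mice received memantine, a blocker of the NMDA-type glutamate receptor channel, in the same way. Saline sham and memantine sham mice had the matching injections, the anaesthesia and the handling, without impacts. RNA was taken 24 h after the last session, and no mouse went without an injection, so the effect of the injection itself is part of every group.

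Brain matrix differs from the fibrillar matrix of other organs. It is built on long hyaluronan chains, to which the lectican proteoglycans (aggrecan, brevican, neurocan and versican, the products of Acan, Bcan, Ncan and Vcan) bind with the help of link proteins of the Hapln family. Tenascin-R, the product of Tnr, crosslinks the lecticans, and around some neurons, above all parvalbumin interneurons, the assembly condenses into perineuronal nets. Sparcl1 encodes hevin, a secreted protein of astrocytes and neurons known for promoting excitatory synapses. Type XII collagen decorates collagen fibrils in tendon, ligament and skin and is not a classical component of the nets.

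Values are normalised counts, the reads assigned to a transcript divided by the library's size factor, recovered from the deposited log2-scale values. The 40 libraries held 13322404 to 17529644 reads over the table, with a median of 15468977. Markers of cortical excitatory neurons summed to between 71967 and 100029 normalised counts in every library, and markers of the striatum, some of which cortex also expresses, to between 30722 and 54005. Of 18 striatal marker transcripts, 8 had an unadjusted p under 0.05 and were lower in saline HF-HI than in saline sham mice, and 0 were higher, where 4.95% of all transcripts were lower and 4.58% higher. Since these are bulk libraries, fewer cells of a type and less RNA per cell cannot be told apart. Members and gene lists were chosen with earlier results of these data known. Col12a1 was taken to have been chosen by its difference between HF-HI and sham mice, because it stood 6th of 6831 transcripts by p in saline HF-HI against saline sham mice and 4th in impact averaged over both drugs, so its values are given as a description with no p-value, and counts of calls are read without it. The other genes share a place in brain matrix. "Impact averaged over both drugs" means the mean of the saline and memantine differences between HF-HI and sham mice.

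The genes spanned a wide range of levels. Per 1000 bases of transcript, Sparcl1 stood at 11710 ± 675 normalised counts (mean ± SD, n = 40), 13th of the 6594 transcripts with a known length. Brevican followed at 769 ± 76.9 and neurocan at 663 ± 60.3, and brevican was above neurocan in 39 of 40 libraries although the ranges of the pair overlapped. Tnr stood at 295 ± 14.7 and Hapln4, which encodes a brain-specific link protein, at 274 ± 28.1 normalised counts per 1000 bases, a difference smaller than the spread of Hapln4, with Tnr above in 29 of 40 libraries. Col12a1 was lowest, at 59.4 ± 11, 6578th of 6594. Apart from brevican against neurocan and Tnr against Hapln4, neighbours in this order did not overlap in any library.

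**Figure D1:**
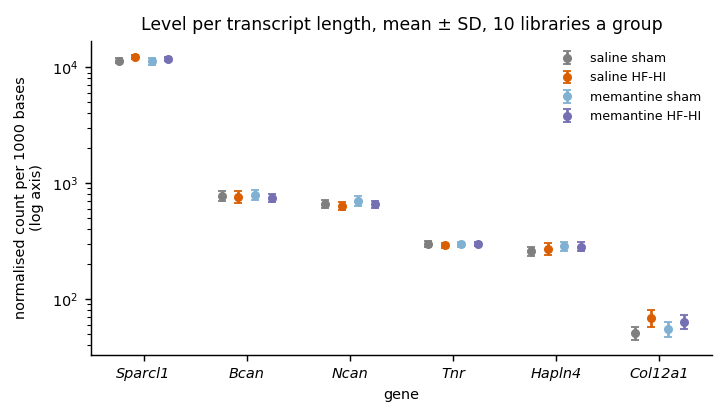
Normalised count per 1000 bases of transcript (log axis) for the 6 genes, as mean ± SD over 10 libraries in each of the 4 groups. Sparcl1 lies 15.2-fold above Bcan over all 40 libraries, and Hapln4 lies 4.61-fold above Col12a1.

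The sequence upstream of the 2 lecticans is shown, since they had the highest positive Pearson correlation of any pair of the genes across libraries. That order did not hold by Spearman correlation or once a GC slope per library was taken out, as given further on. Both are 250-base windows ending at the RefSeq start, GRCm38.p6, minus strand, 5′ to 3′: Ncan at chr8:70120845-70121094 and Bcan at chr3:88000357-88000606. The Bcan window and the last 19 bases of the Ncan window lie inside the annotated spans of the genes, which begin upstream of these starts. Capitals mark every match, on either strand, to TATAA or GGGCGG (a GC box). The letters TGANTCA (AP-1) and TGACGTCA (CRE) were searched too and were in neither window.
Ncan: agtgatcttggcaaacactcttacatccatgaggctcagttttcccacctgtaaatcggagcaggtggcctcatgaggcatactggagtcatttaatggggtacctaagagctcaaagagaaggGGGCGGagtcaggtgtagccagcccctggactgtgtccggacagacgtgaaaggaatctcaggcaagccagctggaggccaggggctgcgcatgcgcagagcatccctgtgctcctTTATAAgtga
Bcan: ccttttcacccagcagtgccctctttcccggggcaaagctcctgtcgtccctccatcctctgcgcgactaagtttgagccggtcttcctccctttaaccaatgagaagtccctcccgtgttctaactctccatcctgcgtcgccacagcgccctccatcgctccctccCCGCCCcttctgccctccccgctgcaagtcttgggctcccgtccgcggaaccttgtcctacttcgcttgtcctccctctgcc
The Ncan window held TATAA on both strands in 1 overlapping run, beginning 9 bases before the start, and 1 GC box on the plus strand of the gene. The Bcan window held 1 GC box on the opposite strand. Among 32544 mouse windows of this length, 22.7% held TATAA, 33.0% GGGCGG, 6.73% TGANTCA and 1.55% TGACGTCA. GC content was 62% in the Bcan window and 54.4% in the Ncan window, against a median of 52.4%. These are matches of letters only.

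Col12a1, taken to have been chosen by its difference after impact, had higher means after impact with either drug. Its rank in the saline comparison was part of that choice. A larger change with saline than with memantine is therefore not read as an effect of the drug. Its normalised count ran from 462 through a median of 602 to 710 in saline sham mice, and from 614 through 742 to 1045 in saline HF-HI mice. All 10 saline HF-HI libraries were above the saline sham mean, and 7 were above the highest saline sham library. The means were 584 ± 78.5 and 785 ± 130 (SD, n = 10 each), a 34.3% higher level, or a log2 change of 0.42 ± 0.09 (SE). With memantine the counts ran from 457 through 669 to 721 in sham mice and from 578 through 710 to 915 in HF-HI mice. 9 of 10 memantine HF-HI libraries were above the memantine sham mean, with 5 above its highest library, and the means of 633 ± 89.7 and 732 ± 100.1 differed by 15.7%, a log2 change of 0.21 ± 0.09. The memantine change minus the saline change was -0.21 ± 0.13 on the log2 scale. Sham mice given memantine had 8.35% more Col12a1 than sham mice given saline, and HF-HI mice given memantine had 0.933 times the level of HF-HI mice given saline, with log2 changes of 0.11 ± 0.09 and -0.09 ± 0.09. Col12a1 lay on mouse chromosome 9 (GRCm38.p6, 79598987 to 79721141). The spread within a group (13.4% to 16.5% of the mean) was more than 3 times the 3.57% to 4.14% that counting alone gives.

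**Figure D2:**
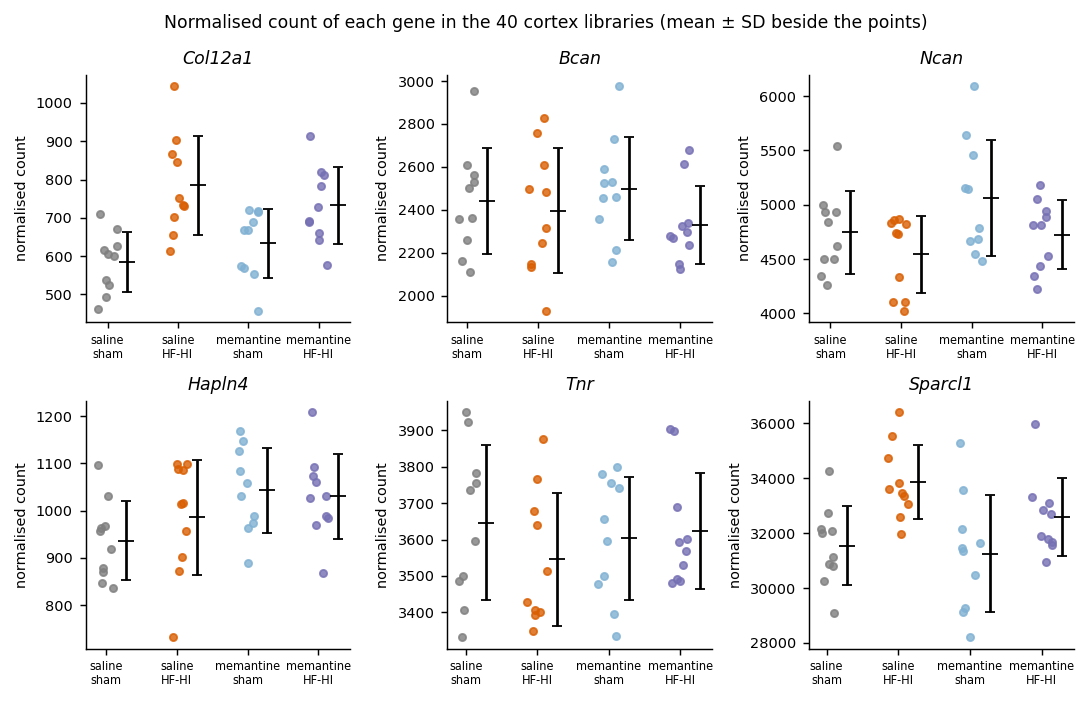
Normalised count (vertical axis, not starting at 0) of each gene in every library, by group, with mean ± SD beside the 10 points of a group. Col12a1 has higher means in both HF-HI groups than in their sham groups, and Sparcl1 has its highest mean in saline HF-HI mice. The ranges of the 4 groups overlap for every gene.

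Sparcl1 was the other gene that was higher after impact in mice given saline. The hevin transcript (chromosome 5, 104079108 to 104114088, GRCm38.p6) ran from 29092 through a median of 31585 to 34253 normalised counts in saline sham mice and from 31964 through 33535 to 36409 in saline HF-HI mice. All 10 saline HF-HI libraries were above the saline sham mean, yet only 3 were above the highest sham library, so the groups overlapped. The difference was 7.33%, a log2 change of 0.10 ± 0.03 (95% interval 0.04 to 0.17, limma p = 0.00277, adjusted p = 0.250 over all 6831 transcripts). The permutation test of the same counts gave p = 0.00155 (two-sided, 100000 resamples), the smallest of 20 such tests (5 genes, Col12a1 left out, in 4 comparisons), of which 2 had a p under 0.05. In memantine mice the counts ran from 28208 through 31407 to 35281 without impacts and from 30949 through 32307 to 35974 with them. This difference of 4.25% had a log2 change of 0.06 ± 0.03 (limma p = 0.0612, adjusted p = 0.967; permutation p = 0.119), and 9 of 10 memantine HF-HI libraries were above the memantine sham mean. The saline and memantine changes differed by -0.04 on the log2 scale (95% interval -0.13 to 0.05, limma p = 0.374). Averaged over both drugs, Sparcl1 was 5.80% higher after impact, with 19 of 20 HF-HI libraries above the sham mean (limma p = 0.000842, adjusted p = 0.125). Striatal markers moved with this result: with their mean z-score as a covariate, a setting added after the data were seen, the saline difference had limma p = 0.0309 (adjusted p = 0.804). With each other added covariate (astrocyte, excitatory neuron, endothelial and mural markers, GC slope described further on), its unadjusted limma p also stayed under 0.05.

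Counts of calls set these values against the whole table. In saline HF-HI against saline sham mice 1 of the 5 genes other than Col12a1, Sparcl1, had an unadjusted limma p under 0.05, the threshold the study's methods set for this experiment, where 9.53% of all transcripts had one. At an adjusted p under 0.1 this was 0 of the 5, where 0.205% of all transcripts were called. In memantine HF-HI against memantine sham mice 0 of the 5 had a limma p under 0.05, where 4.61% of transcripts did. The median log2 change of the 5 genes was -0.03 in the saline comparison and -0.02 in the memantine comparison, and that of all transcripts was 0.00 in each.

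**Figure D3:**
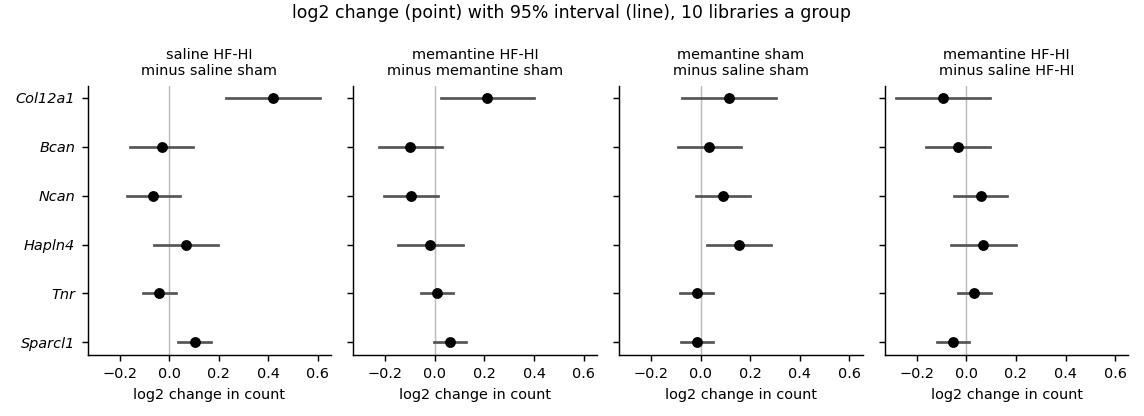
log2 change in normalised count (horizontal axis) for each gene, as a point with its 95% interval, in the 4 comparisons between 2 groups of 10 libraries. Apart from Col12a1, the intervals of Sparcl1 in saline HF-HI minus saline sham and of Hapln4 in memantine sham minus saline sham lie away from 0. The Col12a1 intervals describe the chosen gene and are no test.

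The lecticans had lower means after impact, within the spread of the groups. Brevican, a lectican of adult brain made largely by astrocytes (Bcan, chromosome 3, 87987531 to 88002175, GRCm38.p6), ran from 2109 through a median of 2431 to 2953 normalised counts in saline sham mice and from 1928 through 2398 to 2829 in saline HF-HI mice. The memantine groups ran from 2158 through 2491 to 2978 in sham mice and from 2125 through 2287 to 2680 in HF-HI mice. The 4 ranges overlapped. The log2 change was -0.03 with saline (95% interval -0.16 to 0.10) and -0.10 with memantine (-0.23 to 0.03), and limma p was 0.648 and 0.125. Neurocan, abundant in developing brain and made by neurons and astrocytes, ran from 4259 through 4731 to 5542 in saline sham mice and from 4022 through 4737 to 4873 in saline HF-HI mice. In memantine mice it ran from 4480 through 4968 to 6094 without impacts and from 4226 through 4813 to 5183 with them. 4 saline HF-HI libraries, at 4022 to 4332, sat apart below the other 6, at 4730 to 4873. Its log2 change was -0.06 (interval -0.17 to 0.04, p = 0.245) with saline and -0.10 (-0.20 to 0.01, p = 0.0733) with memantine. Averaged over both drugs, Ncan was 5.56% lower after impact, and 17 of 20 HF-HI libraries were below the sham mean (limma p = 0.0391, adjusted p = 0.501). In that comparison 2 of the 5 genes other than Col12a1 (Sparcl1 and Ncan) had a p under 0.05, where 9.66% of all transcripts did. The Ncan value depended on the library set, the weights and the added covariates: p ran from 0.0215 to 0.0747 when each library was left out in turn and was over 0.05 without 15 of the 40, was 0.0507 with library weights, and with an added covariate was 0.0712 (the GC slope described further on), 0.0810 (striatal markers), 0.10 (endothelial and mural markers), 0.0414 (astrocyte markers) and 0.000878 (excitatory neuron markers).

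Hapln4 was the gene that was higher with memantine. Its gene lies 2222 bases from Ncan on chromosome 8 (Hapln4 at 70083529 to 70090862, Ncan at 70093085 to 70120863, GRCm38.p6). Counts ran from 836 through 938 to 1096 in saline sham mice and from 890 through 1045 to 1169 in memantine sham mice. 9 of 10 memantine sham libraries were above the saline sham mean and 3 were above its highest library. The difference was 11.4%, a log2 change of 0.16 ± 0.06 (95% interval 0.03 to 0.29, limma p = 0.0185, adjusted p = 0.610; permutation p = 0.0150). Here 1 of the 5 genes other than Col12a1 had a p under 0.05, where 7.51% of all transcripts did. Between the HF-HI groups, saline ran from 732 through 1015 to 1100 and memantine from 868 through 1028 to 1209, with a log2 change of 0.07 (interval -0.06 to 0.20, p = 0.301). Averaged over sham and HF-HI mice the memantine groups were 7.85% higher (limma p = 0.0176, adjusted p = 0.556), with 18 of 20 memantine libraries above the saline mean; 1 of the 5 genes had a p under 0.05 in this comparison, where 8.11% of transcripts did. Ncan, its neighbour, had a log2 change of 0.07 in the same comparison (interval -0.0021 to 0.15, p = 0.0563). Excitatory neuron markers correlated with Hapln4 across libraries (r = 0.51), and with their z-score as a covariate the sham comparison had p = 0.0632. With impact Hapln4 had log2 changes of 0.07 (interval -0.06 to 0.20) with saline and -0.02 (-0.15 to 0.11) with memantine.

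Tnr (chromosome 1, 159523729 to 159931729) had the smallest spread of the 6 genes over all 40 libraries, 4.98% of its mean. Counts ran from 3331 through 3666 to 3951 in saline sham, from 3348 through 3472 to 3876 in saline HF-HI, from 3336 through 3626 to 3800 in memantine sham and from 3481 through 3581 to 3904 in memantine HF-HI mice. Group means stayed between 3545 and 3647. The intervals of its log2 change were -0.11 to 0.03 for impact with saline, -0.06 to 0.07 for impact with memantine, -0.08 to 0.05 for memantine in sham mice and -0.03 to 0.10 for memantine in HF-HI mice, which limits any change to these sizes. None of the 5 genes other than Col12a1 had a limma p under 0.05 between drugs among HF-HI mice or for the interaction of impact and memantine, where 3.91% and 3.73% of all transcripts did. The smallest p in the former was 0.0922, for Sparcl1, which with memantine had 0.963 times its level with saline.

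Within groups the genes varied together in a structured way. Deviations of each library from its group mean were correlated over the 40 libraries, as a description without a test. What the libraries share beyond their groups was not tested. Brevican and neurocan had r = 0.58 (Spearman 0.54, between 0.56 and 0.65 in the 4 groups separately), neurocan and Hapln4 r = 0.52 (0.59, between 0.20 and 0.86), and brevican and Hapln4 r = 0.45 (0.44, between 0.08 and 0.72). Sparcl1 ran the other way, with r = -0.77 (-0.76) to neurocan and -0.60 (-0.63) to brevican. Col12a1 had r = 0.42 (0.41) with neurocan, 0.33 (0.41) with Tnr and -0.33 (-0.41) with Sparcl1. Leaving out the 2 libraries farthest from the median of the first gene gave 0.49, 0.55, 0.42, -0.71, -0.53, 0.40, 0.41 and -0.38 for these pairs in the same order.

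A GC slope per library moved with this pattern. It was computed as the slope of the library's deviations on the GC content of 6594 transcripts. Bcan (60.7% GC), Hapln4 (57.0%) and Ncan (55.1%) are GC-rich against a median of 49.1%, and their deviations had r = 0.82, 0.61 and 0.75 with the slope. Sparcl1 (48.2% GC) had r = -0.63, Tnr (47.7%) 0.30 and Col12a1 (48.3%) 0.27. These genes have similar GC content but r of opposite sign. What the slope stands for was not tested. After the slope was removed, an alternative added after the data were seen, the correlation was -0.08 for brevican and neurocan, 0.12 for neurocan and Hapln4 and -0.11 for brevican and Hapln4, -0.19 for brevican and Sparcl1, -0.58 for neurocan and Sparcl1 and 0.35 for neurocan and Col12a1. Hapln4 and Tnr went from -0.22 to -0.53. The slope overlapped widely between groups, from -0.0459 to 0.0444 in saline sham and from -0.0716 to 0.0257 in saline HF-HI libraries (log2 units per 10 points of GC). It ran from -0.0513 to 0.0625 in memantine sham and from -0.0298 to 0.0465 in memantine HF-HI libraries. Memantine sham libraries had the highest group mean, 0.0112 ± 0.0306 (SD), against -0.00112 ± 0.0252 in saline sham libraries. These are the 2 groups between which Hapln4 differed, but their slopes overlapped and no cause of that difference is read from them.

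**Figure D4:**
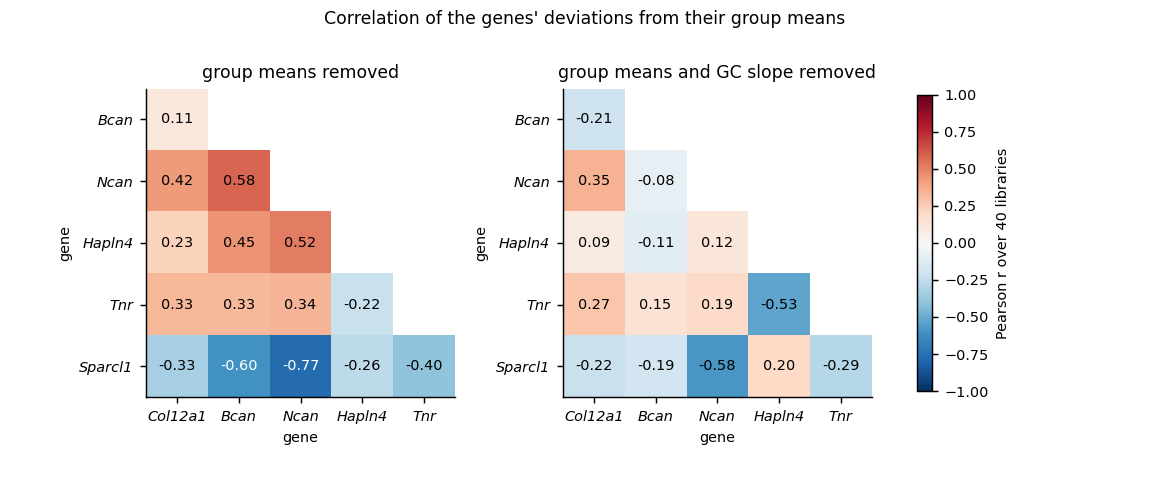
Pearson correlation over 40 libraries between the genes' deviations from their group means, before (left) and after (right) removal of each library's GC slope. The positive block of Bcan, Ncan and Hapln4, at 0.45 to 0.58 on the left, is at -0.11 to 0.12 on the right, and Ncan with Sparcl1 goes from -0.77 to -0.58.

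Cell type markers were compared in the same way. Neurocan deviations had r = 0.71 with the mean z-score of 12 excitatory neuron marker transcripts, Col12a1 0.51 and Sparcl1 -0.51. Parvalbumin interneuron markers, which mark the cells that carry nets, had r = 0.56 with Hapln4, 0.38 with brevican, -0.03 with neurocan, -0.35 with Tnr and -0.38 with Col12a1. Astrocyte markers had r between -0.33 (Col12a1) and 0.38 (Hapln4), and 0.23 with Sparcl1. Endothelial and mural markers had r between -0.34 (Sparcl1) and 0.53 (Hapln4), with 0.47 for neurocan and 0.38 for Col12a1. Oligodendrocyte markers had r between -0.47 (Tnr) and 0.50 (Hapln4), and precursor markers between -0.18 (Sparcl1) and 0.52 (brevican). Microglia markers had r between -0.03 (Hapln4) and 0.15 (Tnr), and striatal markers between -0.41 (Sparcl1) and 0.40 (brevican). The 2 measured transcripts of the fibroblast and meningeal list, the nearest to cells that make fibrillar collagen, had r = 0.21 with Col12a1 and summed to between 5097 and 9467 normalised counts, with group ranges that overlapped. The part of these cell types in the results was not tested beyond the covariates given. Of the other lists in saline HF-HI against saline sham mice, with 4.58% of all transcripts higher and 4.95% lower at p under 0.05, astrocytes had 2 of 18 transcripts higher and 0 lower, microglia 2 of 6 higher and 0 lower, excitatory neurons 2 of 12 higher and 0 lower, and endothelial and mural cells 2 of 6 higher and 0 lower. Parvalbumin interneurons had 1 of 11 higher and 3 lower, oligodendrocytes 1 of 19 higher and 0 lower, oligodendrocyte precursors 0 of 3 higher and 1 lower, and fibroblasts and meninges 0 of 2 either way.

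The transcripts most like Col12a1 across the 40 libraries, group means removed, were Diras2 (r = 0.75), Syt12 (0.70), 9330102E08Rik (0.70), Sorl1 (0.70) and Oprd1 (0.68). Their log2 changes in saline HF-HI against saline sham mice were 0.00, 0.02, 0.06, 0.02 and -0.07 in the same order, where Col12a1 had 0.42. For the summed z-scores of the other 5 genes the nearest were Map3k10 (r = 0.84), Adgrl1 (0.84), Arhgef17 (0.81), Tmem151a (0.80) and Abcb9 (0.80). This sum includes Sparcl1, which ran against the other genes in it. The GC slope was not removed for either set of neighbours, so their r values include whatever moved with it.

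The wider matrix was described by 6 lists, of which 92 of 250 genes were measured, by 110 transcripts. In saline HF-HI against saline sham mice 5 transcripts were higher and 11 lower at p under 0.05, 14.5% of the 110 against 9.53% of all, and 0 passed an adjusted p of 0.1 in limma. With memantine 1 was higher and 2 lower, 2.73% against 4.61%. Whether the 2 comparisons differ over the lists was not tested. The median log2 change over the 110 was -0.01 in each.

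**Figure D5:**
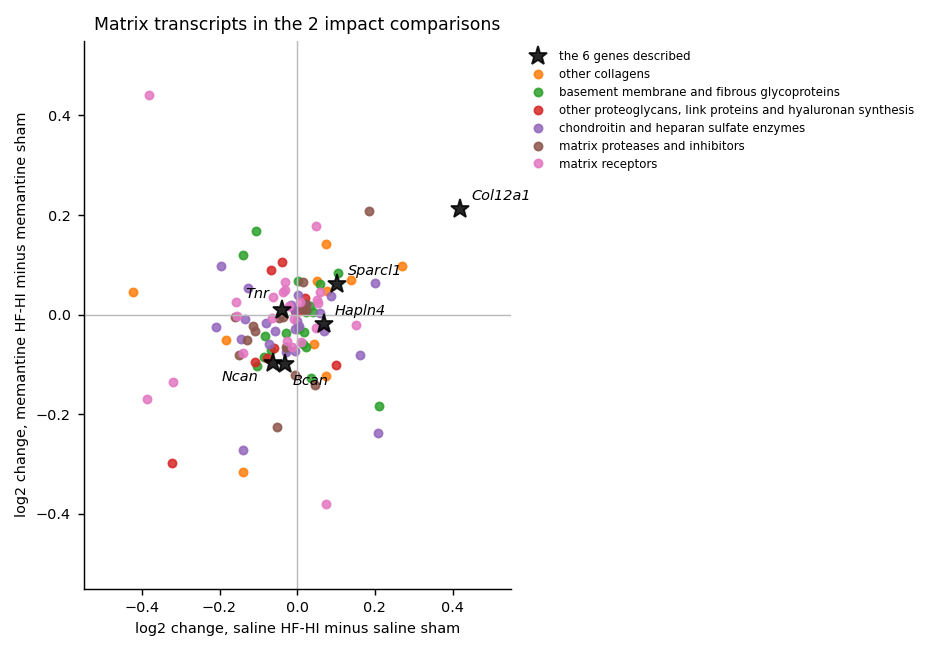
log2 change in saline HF-HI minus saline sham mice (horizontal) against memantine HF-HI minus memantine sham mice (vertical) for 111 matrix transcripts, coloured by list, with stars for the 6 genes described; 5 transcripts of Reln, Sulf2, Adam22 and Ptprs lie outside the limits of 0.55. Col12a1, taken to have been chosen by its difference after impact, stands farthest to the right, at 0.42 and 0.21. Its place is not compared with that of the other transcripts.

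The list of other collagens, which also holds enzymes that modify collagen, had 3 of 10 transcripts higher and 2 lower with impact and saline. Over all transcripts 4.58% were higher and 4.95% lower at a limma p under 0.05. Of its 7 transcripts of collagen genes 2 were higher and 2 lower, and the remaining higher one was Colgalt1, a collagen galactosyltransferase. Col5a1, a chain of the fibril-forming type V collagen, rose from 726 ± 108 to 874 ± 108 (SD, n = 10 each; log2 change 0.27 ± 0.10, limma p = 0.00928, adjusted p = 0.367). Col19a1, which like type XII collagen associates with fibrils, rose from 1655 ± 130 to 1822 ± 149 (p = 0.0109, adjusted p = 0.374). Col4a2, a basement membrane chain of vessels, fell from 1247 ± 97.5 to 1098 ± 85.6 (log2 change -0.18 ± 0.06, limma p = 0.00317, adjusted p = 0.274). The other lower one was a transcript of Col4a1, NR_133670 (log2 change -0.42, limma p = 0.0400). Its other transcript, NM_009931, had a log2 change of 0.04 (limma p = 0.797), so Col4a1 was not lower by both. With memantine 0 of the 10 passed a p of 0.05 in limma in either direction, where 4.61% of all transcripts did.

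Basement membrane and fibrous glycoproteins had 0 of 21 transcripts higher and 1 lower in the saline comparison. Over all transcripts 4.58% were higher and 4.95% lower. The lower one in this list was 1 of 2 Reln transcripts (NM_001310464). It stood at 1259 ± 669 in saline sham and 690 ± 576 in saline HF-HI mice (limma p = 0.0456, adjusted p = 0.509). Reads can be split differently between transcripts of 1 gene, and summed over both Reln, a secreted glycoprotein of interneurons in adult cortex, fell by 0.19 on the log2 scale (limma p = 0.000118, adjusted p = 0.0669 over genes). Spock1, a testican proteoglycan, had 1 transcript lower in memantine sham than in saline sham mice (p = 0.0210), with a sum over both transcripts that differed by 0.04 (p = 0.360). Slit1, an axon guidance protein, was lower with impact averaged over both drugs (log2 change -0.10, p = 0.0381, adjusted p = 0.495), and Slit3 higher with memantine averaged over sham and HF-HI mice (0.09, p = 0.0425, adjusted p = 0.595).

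Other proteoglycans, link proteins and hyaluronan genes had 0 of 10 transcripts higher and 1 lower, where 4.58% and 4.95% of all were. Ptprz1, a receptor phosphatase whose secreted form is the proteoglycan phosphacan, fell from 1639 ± 421 to 1315 ± 336 by transcript NM_001311064 (p = 0.0311, adjusted p = 0.485), and by 0.12 on the log2 scale summed over its 2 transcripts (p = 0.00618, adjusted p = 0.264). Sdc2, a cell surface heparan sulfate proteoglycan, fell from 875 ± 69.6 in saline sham to 787 ± 45.9 in memantine sham mice (p = 0.00368, adjusted p = 0.466).

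Among enzymes that build or modify chondroitin sulfate, the sugar chain of the lecticans, and heparan sulfate, 1 of 27 transcripts was higher and 3 were lower. Of all transcripts 4.58% were higher and 4.95% lower. Chst11, a chondroitin 4-O-sulfotransferase, fell from 995 ± 70.8 to 860 ± 62.7 (log2 change -0.21 ± 0.06, p = 0.00118, adjusted p = 0.191). Chst15, which adds a further sulfate to make chondroitin sulfate E, fell from 960 ± 86.8 to 875 ± 85.1 (p = 0.0238, adjusted p = 0.451). Fam20b, a kinase that starts chain elongation, rose from 2162 ± 73.7 to 2250 ± 64.4 (p = 0.0169, adjusted p = 0.415). The Chst11 change differed between saline and memantine mice by 0.18 on the log2 scale (interaction p = 0.0398, adjusted p = 0.999). With memantine in sham mice Extl1, a glycosyltransferase of the exostosin family, rose from 795 ± 92.0 to 945 ± 116 (p = 0.00328, adjusted p = 0.462), and averaged over sham and HF-HI mice 1 Extl2 transcript was higher (p = 0.00588), with a sum over its 2 transcripts at p = 0.109.

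Among proteases and their inhibitors 1 of 17 transcripts was higher and 2 were lower, against 4.58% and 4.95% of all transcripts. Htra1, a secreted serine protease of astrocytes that cleaves matrix proteins, fell from 2256 ± 155 to 2033 ± 112 in saline mice (log2 change -0.15 ± 0.04, p = 0.000706, adjusted p = 0.165). Averaged over both drugs its change was -0.12 ± 0.03 (p = 0.000268, adjusted p = 0.0842), the only matrix list transcript with an adjusted p under 0.1 there, where 0.425% of all transcripts had one. Serpine2, an inhibitor of serine proteases, fell from 2296 ± 164 to 2120 ± 125 (p = 0.0191, adjusted p = 0.434). Adam22, a catalytically inactive relative of the proteases that binds Lgi1 at synapses, rose by transcript NM_001098225 in saline mice from 4774 ± 568 to 5423 ± 637 (p = 0.0215) and in memantine mice from 4644 ± 593 to 5347 ± 560 (p = 0.0109), and its sum over 3 transcripts had log2 changes of 0.06 (p = 0.00471) and 0.03 (p = 0.0964).

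Of matrix receptors 0 of 25 transcripts were higher and 2 lower in the saline comparison, against 4.58% and 4.95% of all transcripts. Ptprf, of the receptor phosphatase family that binds chondroitin and heparan sulfate, fell from 1719 ± 149 to 1559 ± 116 (p = 0.00681, adjusted p = 0.337). Ncam1, a neural adhesion molecule, fell by transcript NM_001113204 from 1734 ± 295 to 1392 ± 251 (p = 0.00779, adjusted p = 0.340), and by 0.14 on the log2 scale over its 3 transcripts (p = 0.0196). A transcript of Nfasc, an adhesion molecule of axon initial segments, was lower in memantine HF-HI than in memantine sham mice (p = 0.0205), while the sum over its transcripts differed by -0.02 (p = 0.739). Among HF-HI mice Itgav, the integrin alpha V subunit, was at 3920 ± 129 with saline and lower, at 3699 ± 145, with memantine (log2 change -0.08 ± 0.03, p = 0.00196, adjusted p = 0.999).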

How the data were processed

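Cortex RNA of the 40 labelled samples was sequenced as ribosome-depleted, stranded, paired-end libraries. Per the study's methods, reads were aligned with STAR to mm10 and counted per transcript with eXpress; the submitters' processing notes name HISAT2, StringTie and mm10 without a role, and which made the table is not settled here. The authors deposited log2-scale values of DESeq2's variance-stabilising transformation. The transformation was inverted (floor 10.36 for a count of 0), which gave whole reads, within 0.05, for 100% of values under 5000. Symbols were matched for 6819 of 6831 transcripts (RefSeq, GRCm38.p6), and lengths and GC content came from GENCODE M21 for 6594. The lowest mean count in the table was 549, so weakly expressed genes are not analysed here.

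Tests used limma 3.58.1 (R 4.3.3) with a mean-variance trend on the deposited values, 4 groups in 1 fit, and Benjamini-Hochberg adjustment over 6831 transcripts. Log2 changes, standard errors and 95% intervals are from the same fit on log2 of the normalised count plus 1. Two-sided permutation tests (numpy, 100000 resamples) compared gene sums. The fit was tested on simulated data. Members and lists were chosen with earlier results of these data known. Named genes are every member, the 3 smallest p values of each matrix list in the saline impact comparison and the smallest in each other comparison where p was under 0.05, and the 5 nearest transcripts by correlation. Colgalt1 and Col4a1 are named in addition. Groups follow the labels; samples were numbered separately, no batch was given, and replicate numbers did not pair samples. Alternatives were scale, gene sums, normalisation, filter, weights, samples fitted, block, each library left out and added covariates.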

Additional observations from a re-analysis of the deposited data

Results flagged for a closer look

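Of 24 sets of 10 libraries (6 genes in 4 groups), 1 held a library far from the rest by Dixon's ratio, where chance gives about 1 in 20. In memantine HF-HI mice, replicate 1 had 35974 normalised counts of Sparcl1, and the next highest library had 33315, a ratio of 0.529 against a critical value of 0.466. Without that library the log2 change of Sparcl1 on the deposited scale was 0.04 against memantine sham mice and -0.07 against saline HF-HI mice, the latter with limma p = 0.0282.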

How the results depend on the processing

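Over 1714 refits of the 42 changes (6 genes, 7 comparisons) with 40 left-out libraries and 13 other settings, 5 of them added after the data were seen, 1654 stayed on the same side of p = 0.05, 26 lost it and 34 gained it, and 0 changed sign with a p under 0.05 on either side. Col12a1 is among the 6 genes and in the counts of members below. The counts show how calls move between settings, and nothing is read from them about the genes. Member counts with no transcript count beside them are not set against the whole table. Signs changed 70 times, in 10 of the 42, where no p was under 0.05.

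A minimum mean count of 1000, which drops Col12a1 and Hapln4 and tests fewer transcripts (4232), left 425 transcripts with p under 0.05 for impact with saline, 178 for impact with memantine, 155 for memantine in HF-HI mice, 332 for memantine in sham mice, 414 for impact averaged over both drugs, 363 for memantine averaged over sham and HF-HI and 138 for the interaction; 1 member was left for impact with saline, 0 for impact with memantine, 0 for memantine in sham mice and 0 for memantine averaged. The striatal covariate gave 401 transcripts for impact with saline. Library weights gave 513 transcripts and 2 members for impact with memantine, 2 members for memantine averaged and 1 for the interaction. The excitatory neuron covariate gave 337 transcripts and 2 members for impact with memantine, and 379 transcripts and 1 member for memantine in HF-HI mice. It gave 0 members for memantine in sham mice and 2 for memantine averaged, and the endothelial covariate 2 for memantine averaged. Fitting only the groups compared gave 293 transcripts and 1 member for memantine in HF-HI mice. The cause of these changes was not tested.

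Leaving out each library gave 253 to 525 transcripts (525 without memantine sham replicate 9) and 0 to 3 members for impact with memantine. For memantine in HF-HI mice it gave 215 to 326 transcripts and 0 to 1 member (1 without memantine HF-HI replicate 1). For memantine in sham mice it gave 415 to 696 transcripts and 1 to 2 members, and for memantine averaged 459 to 704 transcripts and 1 to 3 members. Of the 20 permutation tests 2 to 4 had a p under 0.05 (4 without memantine sham replicate 9).

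Replicate numbers were shared between groups but did not pair samples: over 60 same-numbered pairs the correlation of deviations lay between -0.13 and 0.16, and 6 correlated best with their own number. The replicate block left 656 transcripts and 2 members for impact with saline and 314 and 1 for impact with memantine, and 2 of the 20 permutation tests by sign flips within numbers.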
